A study of Mus musculus with 19 samples.

Results

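The 10 genes described here belong to the circadian clock and its output: the activators Arntl (BMAL1) and Clock, the repressors Per1, Per2, Per3 and Cry1, the nuclear receptors Nr1d1 and Nr1d2 (REV-ERBα and REV-ERBβ), and the transcription factors Dbp and Tef. They were chosen by symbol from the 24237 genes with usable values in the deposited table, where all 10 were found. Their mRNA was measured by RNA sequencing of whole epididymal white adipose tissue (eWAT, the fat pad beside the testis) of male mice of the strain C57Bl6/J. The mice started at 9 to 10 weeks of age and ate 1 of 4 diets for 17 weeks. The low-fat diet (LFD) gave 10% of energy as fat and the high-fat diet (HFD) 60%, each with a normal (0.21% wt/wt) or a low (0.03% wt/wt) content of magnesium oxide. The groups are called NormMg-LFD, LowMg-LFD, NormMg-HFD and LowMg-HFD. NormMg-LFD had 4 mice and each of the others 5, with 1 library per mouse, and mice are named by their group and number. The study's methods give free access to food and a room with controlled light for the acclimatization before the diets. During the diets, mice were fasted for insulin and glucose tolerance tests. The clock time at which each mouse was killed is not given in the sources used here.

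The clock runs as a feedback loop within each cell. ARNTL and CLOCK bind DNA together and switch on the Per and Cry genes, Nr1d1, Nr1d2, Dbp and Tef, PER and CRY proteins then shut off the pair, and the REV-ERB receptors repress Arntl. In rodent tissues Arntl mRNA therefore peaks when Nr1d1 and Dbp mRNA are low, so that the level of any of these genes in a tissue sample depends on the time of day at which it was taken. DBP and TEF act on further genes through the D-box, and in fat the clock is known for timing lipid storage and release.

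Short DNA motifs carry this wiring, and 4 promoters are shown because each holds one of them. The windows are from RefSeq (GRCm38.p6), 250 bases before to 50 after a gene start, written 5′ to 3′ on the strand of the gene. Capitals mark the E-box CACGTG, to which ARNTL and CLOCK bind, the D-box TTATGTAA or TTATGCAA, and the RORE, the element of the REV-ERB receptors, all searched on both strands. The windows are Arntl at chr7:113207261-113207560 (+ strand), Per1 at chr11:69098699-69098998 (+), Tef at chr15:81802423-81802722 (+) and Per3 at chr4:151044616-151044915 (− strand).
Arntl: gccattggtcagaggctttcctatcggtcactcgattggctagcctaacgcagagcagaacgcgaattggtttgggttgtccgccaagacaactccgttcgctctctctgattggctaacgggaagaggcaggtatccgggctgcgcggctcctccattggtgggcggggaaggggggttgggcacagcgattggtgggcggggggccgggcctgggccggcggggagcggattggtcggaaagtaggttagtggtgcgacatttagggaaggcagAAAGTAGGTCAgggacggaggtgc
Per1: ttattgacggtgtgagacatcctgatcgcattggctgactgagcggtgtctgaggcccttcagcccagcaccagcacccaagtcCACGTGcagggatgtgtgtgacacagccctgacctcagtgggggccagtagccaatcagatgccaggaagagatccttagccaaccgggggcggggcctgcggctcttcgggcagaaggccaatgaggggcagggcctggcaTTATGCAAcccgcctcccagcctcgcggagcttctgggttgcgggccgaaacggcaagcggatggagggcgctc
Tef: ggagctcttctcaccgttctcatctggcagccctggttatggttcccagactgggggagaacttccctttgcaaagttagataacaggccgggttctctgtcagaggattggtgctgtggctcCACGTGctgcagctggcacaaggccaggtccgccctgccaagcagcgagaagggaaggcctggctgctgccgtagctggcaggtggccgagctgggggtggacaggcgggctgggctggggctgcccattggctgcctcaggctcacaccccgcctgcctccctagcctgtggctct
Per3: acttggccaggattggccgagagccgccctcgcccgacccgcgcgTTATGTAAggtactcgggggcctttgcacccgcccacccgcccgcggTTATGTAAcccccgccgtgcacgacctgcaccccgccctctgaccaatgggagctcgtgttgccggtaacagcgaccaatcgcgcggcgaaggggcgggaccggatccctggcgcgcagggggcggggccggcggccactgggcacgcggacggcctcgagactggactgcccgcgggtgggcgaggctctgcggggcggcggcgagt

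The Arntl window held 1 RORE, which began 26 bases after the start. The Per1 window held 1 E-box and 1 D-box, the Tef window 1 E-box, and the Per3 window 2 D-boxes. Among the 9 genes with an entry, Cry1 also held an E-box, so that 3 genes held an E-box, 2 a D-box and 1 a RORE. Of 32817 promoter windows of the same length, 7.15% held the E-box, 1.66% the D-box and 0.384% the RORE. These shares are per window, while a gene was counted if any of its windows held the motif. Arntl and Per1 each had another window with none of the motifs, and Tef another with 1 E-box. Per2 had no entry. The windows of Clock, Dbp, Nr1d1 and Nr1d2 held none of the motifs, which says only that these letters do not occur in those windows.

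All 19 libraries held 12986441 to 13027028 reads, of which 86.12% to 90.41% mapped. The 8 adipocyte markers were detected in every group, with summed levels of 12741 to 27075 FPKM (fragments per kilobase of transcript, scaled to the mapped reads of the library). A pair of libraries held RNA of other organs. The library labelled NormMg-LFD mouse 3 had 1350 FPKM summed over 8 exocrine pancreas genes, against 0.93 to 3.42 in the other 18 mice. The library labelled LowMg-LFD mouse 4 had 108 FPKM summed over 5 epididymis genes, against at most 3.61 in the others of the 4 groups. The study's methods speak of pancreatic tissue in a LowMg-HFD sample, which the study left out of its analyses. In the 5 LowMg-HFD libraries used here the same pancreas genes summed to 0.93 to 2.68 FPKM. Which library the study left out is not given in the labels, so all 19 were kept under their labels.

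Levels differed between the genes by over an order of magnitude on the FPKM scale, which is per length of transcript. Over the 19 mice the mean was highest for Nr1d1 at 62.8 FPKM, followed by Tef at 46.4, Dbp at 29.6, Per1 at 16.7 and Nr1d2 at 16.4 FPKM. It was lowest for Cry1 at 4.35, Per2 at 4.95 and Arntl at 5.90 FPKM. All 10 genes passed the filter of a mean of at least 1 FPKM over all mice, together with 14268 genes in all that were tested. Differences below are on the log2(FPKM + 1) scale, with limma's adjusted p over these genes and a threshold of 0.05.

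**Figure D1:**
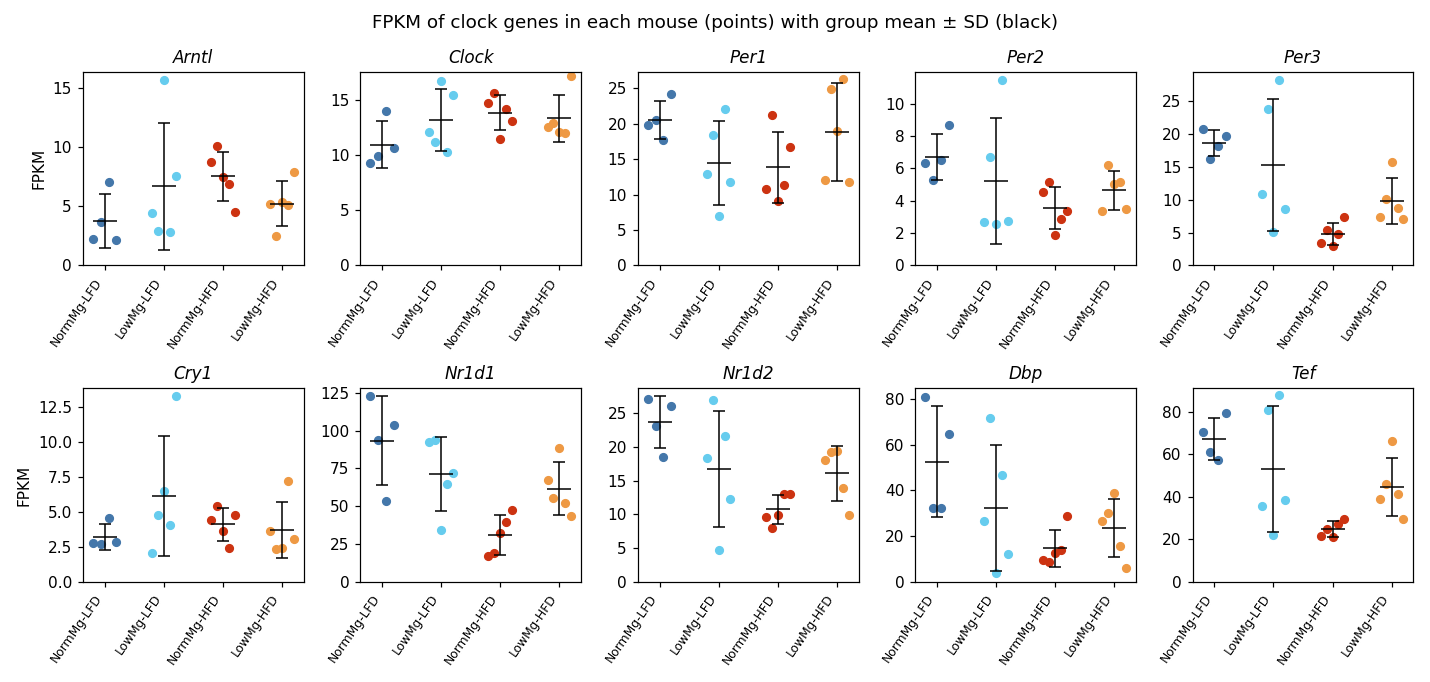
FPKM of the 10 clock genes in each mouse (points, y axes in FPKM from 0) by diet group (x axis), with the group mean ± SD in black. For Nr1d1, Per3, Tef, Nr1d2 and Dbp every NormMg-HFD mouse lay below every NormMg-LFD mouse, and the LowMg-LFD mice had the largest SD in FPKM for all genes but Per1 and Nr1d1.

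The high-fat diet at normal Mg2+ was compared first, and here the clock genes differed most. Among the 10 genes, 5 fell in NormMg-HFD against NormMg-LFD, namely Per3, Nr1d1, Tef, Nr1d2 and Dbp, and none rose. Over all genes tested 26.9% were called in this comparison, and 9.67% were called as lower. The median difference of the 10 genes was −0.94, beside 0.01 for all genes. In 6 of the 10 genes, the 5 called and Per2, the groups did not overlap, a pattern that 25.5% of all genes showed.

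Nr1d1, the repressor of Arntl, was measured at 123, 93.7, 53.1 and 104 FPKM in the NormMg-LFD mice. In the NormMg-HFD mice it was 16.9, 19.02, 32.1, 39.6 and 47.5 FPKM. All NormMg-HFD values lay below the lowest NormMg-LFD value, and the mean was 3.01-fold lower (log2 difference −1.60 ± 0.33 SE, adjusted p = 0.00124).

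Per3, a relative of the PER repressors that the core loop can do without, showed the largest difference of the 10 genes. It was 20.7, 16.1, 18.2 and 19.6 FPKM in NormMg-LFD and 3.41, 5.41, 2.92, 4.85 and 7.31 FPKM in NormMg-HFD. The groups were far apart in comparison with their spread, with a mean 3.91-fold lower on HFD (log2 difference −1.81 ± 0.36 SE, adjusted p = 0.000886).

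Tef, an activator at D-boxes, was 70.7, 61.3, 57.6 and 79.6 FPKM in NormMg-LFD. It was 21.6, 24.7, 21.1, 27.2 and 29.5 FPKM in NormMg-HFD, again with no overlap. The log2 difference was −1.40 ± 0.31 (SE, adjusted p = 0.00198), a mean 2.71-fold lower.

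Dbp, a direct target of ARNTL and CLOCK that is known for a wide daily swing, was 81.0, 32.3, 32.3 and 64.9 FPKM in NormMg-LFD. In NormMg-HFD it was 9.45, 8.74, 12.5, 13.9 and 28.6 FPKM. The highest NormMg-HFD mouse came close to the lowest NormMg-LFD mice, and the log2 difference of −1.79 ± 0.63 (SE, adjusted p = 0.0429) lost its call without any 1 of 7 mice: NormMg-LFD mice 2, 3 and 5 and NormMg-HFD mice 1, 2, 3 and 4. Its call was also lost with no filter on low values (adjusted p = 0.0809) and with no intensity trend in limma (adjusted p = 0.0519). Nr1d2, the partner of Nr1d1, was 18.5 to 27.1 FPKM in NormMg-LFD and 8.01 to 13.03 FPKM in NormMg-HFD (log2 difference −1.08 ± 0.33 SE, adjusted p = 0.0203). Its call was lost without NormMg-LFD mouse 2 or mouse 5, with an adjusted p of up to 0.0550 over all fits that leave out 1 mouse.

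The other 5 genes did not pass the threshold. Per2 had a log2 difference of −0.80 ± 0.32 (SE, adjusted p = 0.0781) and Per1 of −0.59 ± 0.30 (adjusted p = 0.154). Arntl and Clock, the activators, had differences in the other direction, of 0.91 ± 0.39 (adjusted p = 0.0911) and 0.32 ± 0.15 (adjusted p = 0.124). Cry1 differed by 0.27 ± 0.34 (adjusted p = 0.592). Without NormMg-LFD mouse 4, whose Arntl of 7.01 FPKM was the highest of its group, Arntl (1.198, adjusted p = 0.0323) and Clock (0.43, adjusted p = 0.0402) passed the threshold, and Arntl also did without LowMg-LFD mouse 3.

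Of the 2 libraries with RNA of other organs, NormMg-LFD mouse 3 entered this comparison. Without it 4 of the 10 genes were called, and without LowMg-LFD mouse 4, which entered only through the shared estimate of the spread, 6. Macrophage markers moved in the same comparison: all 8 rose in NormMg-HFD, and their summed level was 1730 to 2579 FPKM against 455 to 564 FPKM in NormMg-LFD. None of them was at 0 in any group. Of the 8 adipocyte markers 5 fell and 1 rose, with sums of 12741 to 17250 FPKM against 17113 to 22894 FPKM. With the mean of the macrophage markers in the fit, an alternative chosen after seeing the data, the 5 differences were −1.32 to −3.02 with larger errors and none was called, nor was any of the 14268 genes. The cell makeup and the diet cannot be told apart here, and in whole tissue fewer cells of a type cannot be told from less RNA per cell.

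The genes Nr1d1, Dbp, Tef and Arntl overlap neighbours on the opposite strand, and whether the counting used strand is not stated. Nr1d1 shares 263 exonic bases with Thra, which itself fell in NormMg-HFD (log2 difference −0.90, adjusted p = 1.38e-05). Dbp shares 539 exonic bases with Sphk2, which differed by 0.09 (adjusted p = 0.6996). Tef shares 193 exonic bases with Gm17597, and Arntl 33 with Gm45355. How reads in these stretches were divided was not tested.

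Low Mg2+ on the high-fat diet was compared next, against the same NormMg-HFD mice as above, so that both comparisons share these libraries. Of the 10 genes, 1 rose in LowMg-HFD, Nr1d1, and none fell. Over all genes tested 10.7% were called, near the share among the clock genes, and 2.99% were called as higher. The median difference of the 10 genes was 0.46, beside 0.00 for all genes.

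Nr1d1 was 67.5, 55.3, 88.7, 52.4 and 43.2 FPKM in LowMg-HFD, against the 16.9 to 47.5 FPKM of NormMg-HFD given above. Of the 5 LowMg-HFD mice 4 lay above all NormMg-HFD mice, and the mean was 1.98-fold higher (log2 difference 1.03 ± 0.31 SE, adjusted p = 0.0407). An exact permutation test of the mice gave a two-sided p of 0.0159 for Nr1d1 (n = 5 and 5). This call was close to the threshold. It was lost without any 1 of 7 mice (LowMg-LFD mouse 5, NormMg-HFD mice 1, 2 and 3, LowMg-HFD mice 1, 2 and 3), and over all 19 fits that leave out 1 mouse the adjusted p ran from 0.0188 to 0.115. Each mouse centred on its median, no filter on low values, no intensity trend or only the 2 groups in the fit also ended it, with adjusted p = 0.0516 for the last.

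Tef was the 1 gene of the 10 whose groups did not overlap, at 39.0, 46.1, 66.4, 41.5 and 29.8 FPKM in LowMg-HFD and at most 29.5 FPKM in NormMg-HFD. Over all genes 9.22% showed such a separation. The separation rests on a difference of under 1 FPKM between LowMg-HFD mouse 5 and NormMg-HFD mouse 5. Its exact permutation p of 0.00794 (two-sided, n = 5 and 5) is the smallest that these group sizes allow, and limma gave a log2 difference of 0.78 ± 0.29 (SE, adjusted p = 0.0903). Per3 was 7.35, 10.04, 15.7, 8.73 and 7.05 FPKM in LowMg-HFD, with 4 mice above all NormMg-HFD mice (log2 difference 0.90 ± 0.34 SE, adjusted p = 0.0983).

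Nr1d2 differed by 0.53 ± 0.31, Dbp by 0.55 ± 0.60, Per1 by 0.40 ± 0.28 and Per2 by 0.33 ± 0.31 on the log2 scale, with adjusted p-values of 0.318 to 0.6004. Arntl differed by −0.48 ± 0.36 (adjusted p = 0.445), Cry1 by −0.17 ± 0.32 and Clock by −0.05 ± 0.14. In LowMg-HFD the 8 macrophage markers were all lower than in NormMg-HFD, with sums of 567 to 1523 FPKM, and 4 of 8 adipocyte markers were higher. With the macrophage mean in the fit, Nr1d1 differed by 0.87 ± 0.50 (adjusted p = 0.763), and none of the 14268 genes was called.

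Low Mg2+ on the low-fat diet gave no call. None of the 10 genes passed the threshold in LowMg-LFD against NormMg-LFD, where limma called 0% of all genes (0 of 14268, with 830 at an unadjusted p under 0.05). Dbp had the largest difference, −1.11 ± 0.63 (SE, adjusted p = 0.863), with a 95% interval of −2.43 to 0.22 that leaves room for a large fall. Nr1d2 differed by −0.65 ± 0.33 (adjusted p = 0.854) and Cry1 by 0.59 ± 0.34 (adjusted p = 0.863). No member was free of overlap between the groups, against 1.56% of all genes. The means of the Per and Nr1d genes, Dbp and Tef were lower in LowMg-LFD, 7 in all, and the means of Arntl, Clock and Cry1 were higher.

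On the low-Mg2+ diets, high against low fat gave no call among the 10 genes, with 9.18% of all genes called. Their differences ran from −0.49 (Cry1, adjusted p = 0.405) to 0.37 (Per1, adjusted p = 0.474), and no gene was free of overlap, against 6.57% of all genes. The test of the difference between the 2 Mg2+ effects, the interaction, called 0% of all genes by limma (0 of 14268, with 2374 at an unadjusted p under 0.05) and none of the 10. It was 1.43 ± 0.45 for Nr1d1 (adjusted p = 0.123), 1.29 ± 0.42 for Tef (adjusted p = 0.126) and 1.40 ± 0.49 for Per3 (adjusted p = 0.155), all positive. The response to Mg2+ was thus not shown to depend on the fat content for any of these genes.

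Across the 4 groups the mean levels of Nr1d1 ranked NormMg-LFD (93.3 ± 29.4 FPKM, SD, n = 4), LowMg-LFD (71.4 ± 24.3, n = 5), LowMg-HFD (61.4 ± 17.6, n = 5) and NormMg-HFD (31 ± 13.1, n = 5). Of these neighbours, LowMg-HFD and NormMg-HFD differed past the threshold and the others did not (adjusted p = 0.863 and 0.795). Per2, Per3, Nr1d2, Dbp and Tef had the same order of means in FPKM, but LowMg-LFD and LowMg-HFD overlapped for each of them. By medians in FPKM, LowMg-HFD lay above LowMg-LFD for Per2 (5.01 and 2.75), Dbp (26.8 and 26.5) and Tef (41.5 and 38.7), and by mean log2 values for Per2 and Nr1d2 (differences of 0.03 and 0.09). Arntl had its lowest mean in NormMg-LFD (3.77 ± 2.28 FPKM) and its highest in NormMg-HFD (7.52 ± 2.07 FPKM), with LowMg-HFD (5.21 ± 1.93) and LowMg-LFD (6.67 ± 5.35) between, and none of the 4 comparisons of groups passed the threshold for it.

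Pooled over the 4 diets, the spread between mice on 1 diet was large for 9 of the 10 genes. The pooled residual SD of Dbp, 1.04 on the log2 scale, lay at the 95th percentile of all genes tested, whose median was 0.26. Arntl had an SD of 0.63 (percentile 88.9) and Per3 of 0.58 (87.8), and Cry1, Nr1d1, Nr1d2, Per2, Tef and Per1 lay between percentiles 83.03 and 86.5. Clock, which is known to vary little over the day, had an SD of 0.22 at percentile 38.2. The spread was not wide in every diet: within NormMg-LFD the SD was 0.15 for Per3, 0.18 for Per1, 0.21 for Tef, 0.24 for Nr1d2 and 0.26 for Per2, and that of Tef within NormMg-HFD was 0.20.

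The share of the variance that lay between the 4 groups differed from gene to gene. It was 61.5% for Per3, 60.1% for Nr1d1 and 55.4% for Tef, which puts these 3 at percentiles 77.9 to 82.7 of all genes. It was 37.6% for Nr1d2 and 30.96% for Dbp, near the median of all genes of 29.6%. For Arntl, Clock, Per1, Per2 and Cry1 it was 17.2% to 26.0%, below that median. With so few mice a group, part of any such share arises by chance, and that part was not estimated.

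**Figure D2:**
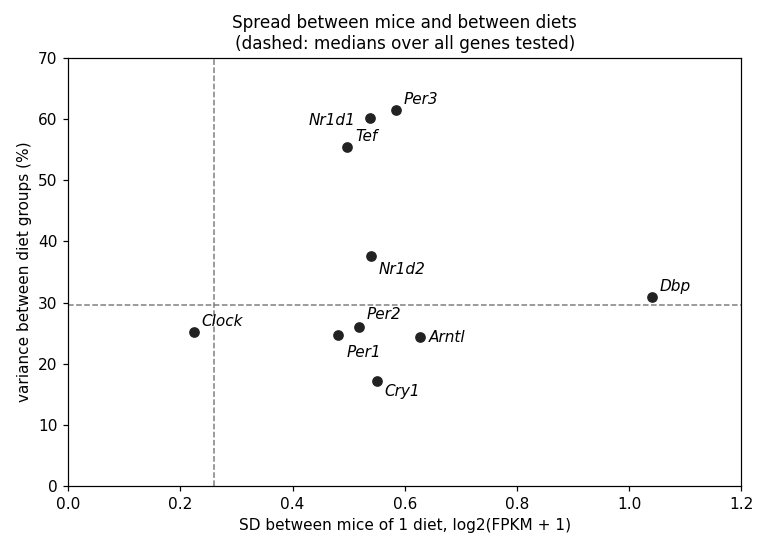
SD between mice of 1 diet on the log2(FPKM + 1) scale (x axis) against the percent of variance between the 4 diet groups (y axis) for the 10 clock genes, with the medians of all genes tested as dashed lines. Per3, Nr1d1 and Tef stand above 55% on the y axis, while Dbp is far to the right at an SD of 1.04 with 30.96% between diets.

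The widest spread was within LowMg-LFD. On the log2(FPKM + 1) scale the SD was largest in this group for 9 of the 10 genes, all but Nr1d1, beside 25% of all genes. LowMg-LFD mouse 3 had the highest Arntl of all 19 mice, 15.6 FPKM, and the lowest Dbp (4.01 FPKM), Nr1d2 (4.65 FPKM) and Per1 (7.05 FPKM). LowMg-LFD mice 2 and 4, on the same diet, had 2.93 and 2.86 FPKM of Arntl and 71.9 and 46.7 FPKM of Dbp. The full set of LowMg-LFD Dbp values was 26.5, 71.9, 4.01, 46.7 and 12.2 FPKM, and that of Arntl 4.39, 2.93, 15.6, 2.86 and 7.57 FPKM. The mouse order of Arntl was close to the reverse of that of Dbp. In LowMg-HFD, mouse 5 had the highest Arntl (7.91 FPKM) and the lowest Dbp (6.21 FPKM) of its group.

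**Figure D3:**
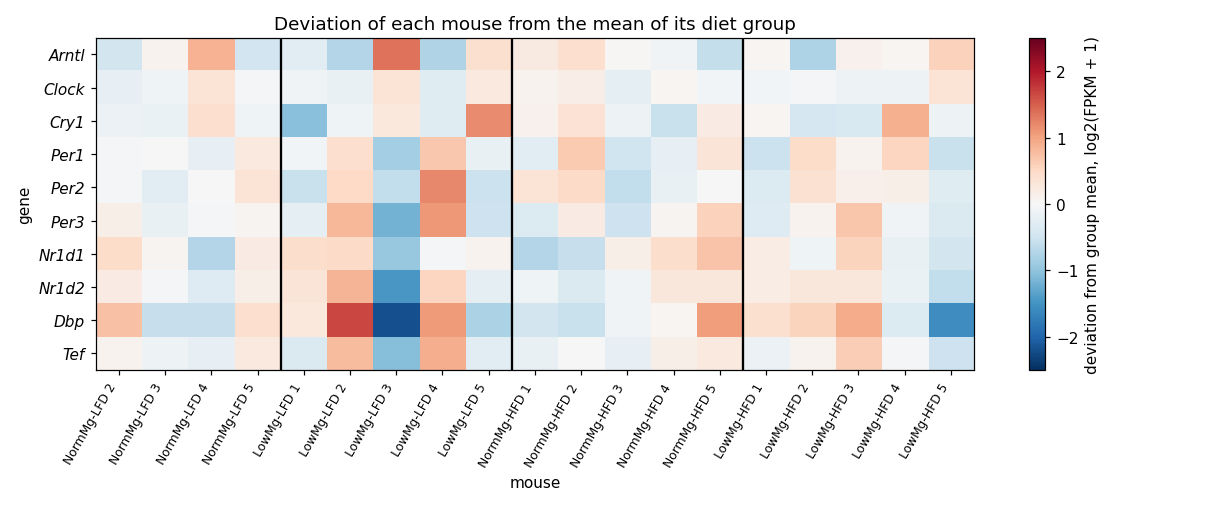
Deviation of each of the 19 mice (x axis, grouped by diet) from the mean of its diet group on the log2(FPKM + 1) scale (colour) for the 10 clock genes (y axis). LowMg-LFD mouse 3 is 1.35 above its group mean for Arntl and 2.19 below it for Dbp, and most columns show Arntl with a colour opposite to that of the lower rows.

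After the group means were taken away, Arntl and Dbp had a Pearson r of −0.884 and a Spearman rho of −0.856 over the 19 mice. A permutation test with 100000 draws within groups gave two-sided p-values of 2e-05 for r and 0.00012 for rho. Without the 2 mice farthest from the median of Arntl (LowMg-LFD mouse 3 and LowMg-HFD mouse 2) r was −0.830 and rho −0.841 (permutation p = 0.00014 and 0.00022, n = 17). This was the only relation between mice that was tested in this way. Within each diet r was −0.848 in NormMg-LFD, −0.984 in LowMg-LFD, −0.990 in NormMg-HFD and −0.648 in LowMg-HFD, given as a description of 4 or 5 mice each.

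The other correlations are given as a description over the same 19 libraries, with no test. Arntl was negatively correlated with all 7 of Per1, Per2, Per3, Nr1d1, Nr1d2, Dbp and Tef, with r from −0.893 (Nr1d2) to −0.523 (Per2). Within single diets these r were negative as well, except in NormMg-HFD, where Per2 had an r of 0.412 and Per1 of 0.0233 with Arntl over 5 mice. Their size differed between diets. In LowMg-LFD they ran from −0.984 (Nr1d2) to −0.744 (Per2), and in LowMg-HFD from −0.769 (Per2) to −0.166 (Nr1d1). Arntl was positively correlated with Clock (r = 0.799) and Cry1 (r = 0.436). Among the 21 pairs of the 7 genes, 20 were positive, with a median r of 0.761, a highest of 0.951 (Per3 with Tef) and a lowest of −0.03 (Per2 with Nr1d1). When all genes tested were ordered by their negative r with Arntl, Nr1d2 was number 1 and Dbp number 2, Tef 22, Nr1d1 40, Per3 41, Per1 84 and Per2 248. Clock was number 17 by positive r and Cry1 number 998. Without LowMg-LFD mice 3 and 5, left out after seeing the data, r with Arntl was −0.786 for Nr1d2 and −0.762 for Dbp, but −0.413 for Per3 and −0.287 for Per2.

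**Figure D4:**
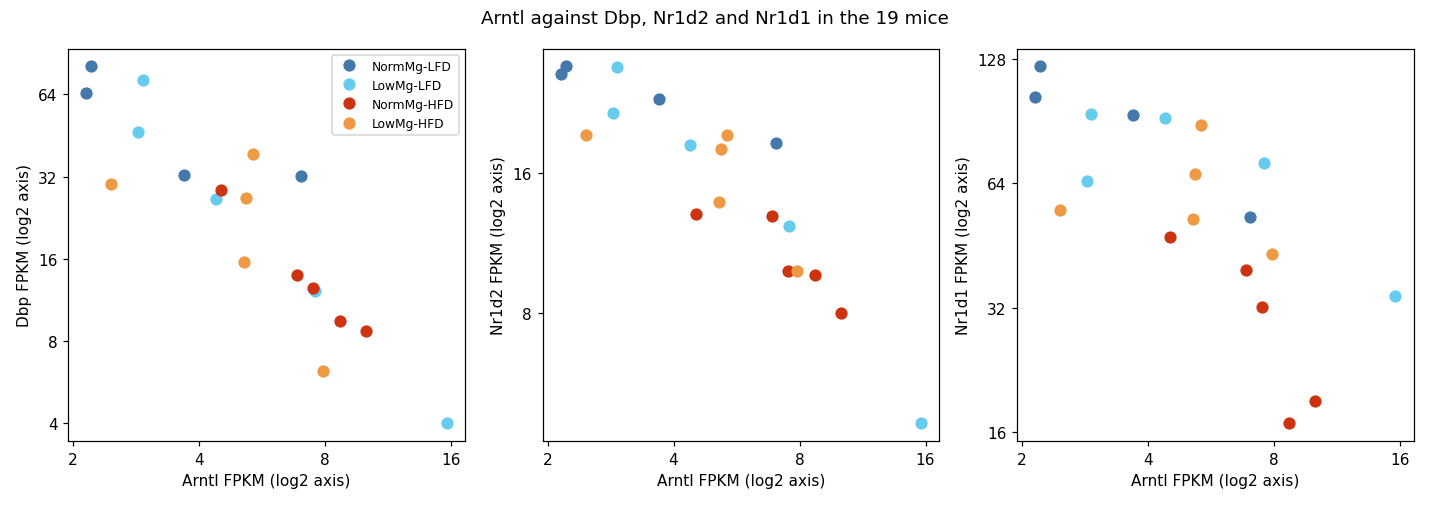
Arntl (x axes) against Dbp, Nr1d2 and Nr1d1 (y axes) in FPKM on log2 axes, 1 point per mouse, coloured by diet group. All 3 genes tend to be lower where Arntl is higher, with scatter: at 7.91 FPKM of Arntl Dbp is 6.21 FPKM in LowMg-HFD mouse 5, and at 7.01 FPKM it is 32.3 FPKM in NormMg-LFD mouse 4.

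A fit across all genes with the diet group and Arntl of the same mouse put a test to the slopes. The slope on Arntl was −1.47 ± 0.19 for Dbp and −0.77 ± 0.10 for Nr1d2 (SE, log2 units per log2 unit of Arntl), with limma adjusted p = 0.00182 for each. These 2 genes were called, among 9 members besides Arntl, where 0.0841% of 14267 genes were called and 0.035% with a negative slope. Tef had a slope of −0.61 ± 0.13 (adjusted p = 0.0884), Clock of 0.29 ± 0.06 (adjusted p = 0.111), and Nr1d1 and Per3 of −0.61 ± 0.15 and −0.66 ± 0.16 (adjusted p = 0.173 for each). Both calls were lost without LowMg-LFD mouse 3, with slopes of the same sign and adjusted p-values of 0.115 for Dbp and 0.119 for Nr1d2. Over all 19 fits that leave out 1 mouse, the slope ran from −1.63 to −1.36 for Dbp and from −0.85 to −0.57 for Nr1d2.

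Of the other genes that followed Arntl, those called with a positive slope included Dtx4 (0.73 ± 0.09, adjusted p = 0.00182), Leo1, Dapk1, Rhbdl3, Sc5d and Tanc2. Those called with a negative slope included Chac1 (−0.85 ± 0.13, adjusted p = 0.0144) and Parp9 (−0.33 ± 0.06, adjusted p = 0.0422). By r the gene most like Arntl was Leo1 (r = 0.941 over 19 mice), a part of the PAF1 complex that travels with RNA polymerase II, followed by Dtx4 (r = 0.910).

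The diet differences were then read at equal Arntl, with Arntl of each mouse in the same fit. The fit had 1 slope on Arntl for all diets, although r with Arntl within diets ran from −0.962 to −0.166 for Nr1d1. For Per3 this r ran from −0.942 to −0.284 and for Tef from −0.910 to −0.405. Single mice were not left out in turn for these differences. In NormMg-HFD against NormMg-LFD, Per3 differed by −1.21 ± 0.30 (SE, adjusted p = 0.00778), Nr1d1 by −1.05 ± 0.28 (adjusted p = 0.0111) and Tef by −0.85 ± 0.24 (adjusted p = 0.0157). Dbp went from −1.79 to −0.45 ± 0.35 (adjusted p = 0.401) and Nr1d2 from −1.08 to −0.38 ± 0.19 (adjusted p = 0.162), so that 3 genes were called in place of 5. The same 3 genes were called at equal Dbp, with differences of −0.98 for Per3, −0.90 for Nr1d1 and −0.66 for Tef.

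In LowMg-HFD against NormMg-HFD, Nr1d1 differed by 0.73 ± 0.24 at equal Arntl (adjusted p = 0.0627), and no member was called. At equal Dbp it differed by 0.81 ± 0.22 (adjusted p = 0.0240) and Tef by 0.55 ± 0.15 (adjusted p = 0.0294), and both were called. Arntl and Dbp are themselves clock genes that can differ between diets. A shift in collection time between groups and an effect of the diet on the clock cannot be told apart by these fits.

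**Figure D5:**
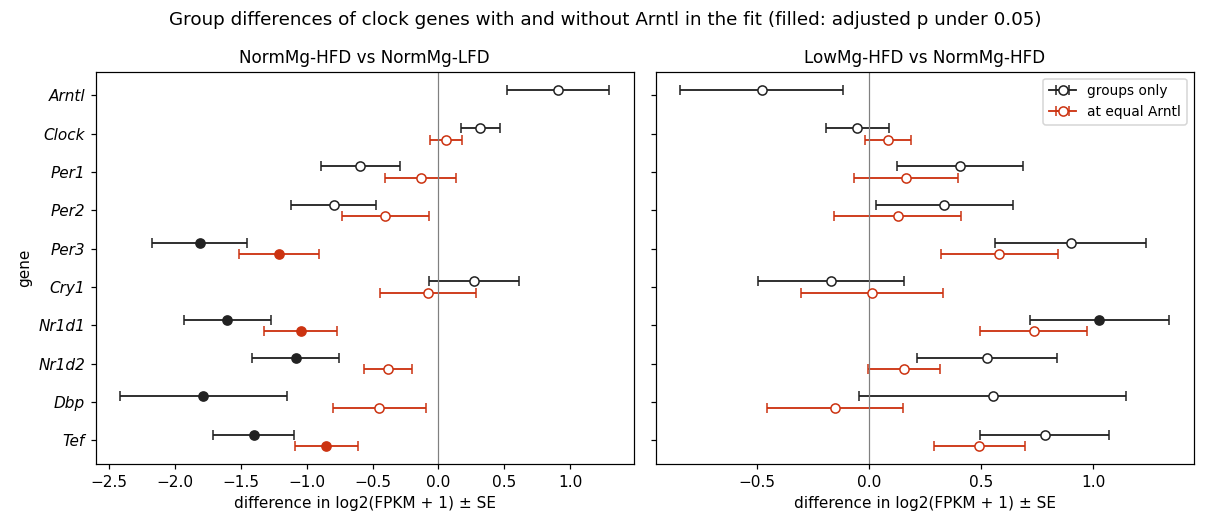
Differences between groups in log2(FPKM + 1) with SE (x axes) for the 10 clock genes (y axis), from the fit on groups alone (black) and with Arntl of each mouse added (red). Filled points have an adjusted p under 0.05: 5 genes in the left panel (NormMg-HFD vs NormMg-LFD) without Arntl and 3 with it, and Nr1d1 alone in the right panel (LowMg-HFD vs NormMg-HFD) without it. Arntl has no red point.

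Other parts of the clock were read from lists of known genes. Among the further clock factors called in NormMg-HFD against NormMg-LFD, Cry2 and Hlf fell and Nfil3 rose. Cry2, a repressor like Cry1, fell by 0.78 on the log2 scale (SE 0.10, adjusted p = 1.01e-05), from 24.8 ± 1.43 to 14.1 ± 1.497 FPKM (SD, n = 4 and 5). Its SD between mice lay at percentile 6.40 of all genes. Hlf, the D-box relative of Dbp and Tef, fell by 1.57 (adjusted p = 0.000806). Nfil3, the repressor at the D-box, rose by 1.24 (adjusted p = 0.00802), from 2.68 ± 1.44 to 7.69 ± 2.99 FPKM.

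In LowMg-HFD against NormMg-HFD, Cry2 rose by 0.42 (SE 0.09, adjusted p = 0.00702) to 19.3 ± 2.12 FPKM, and no other of these factors was called. Nfil3 had a difference of −0.91 (adjusted p = 0.0653). None of these factors was called in LowMg-LFD against NormMg-LFD, in the interaction, where Cry2 came nearest with 0.74 (adjusted p = 0.0540), or in the slope on Arntl.

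None of 5 known clock-controlled genes (Usp2, Tspan4, Tsc22d3, Wee1 and Nampt) was called in any comparison. Glucocorticoids, which rise and fall with the day, also act on fat, and of 7 responsive genes 3 were called in NormMg-HFD against NormMg-LFD, where 26.9% of all genes were, so that this share is not far from the background. Mt2, a metallothionein gene, rose by 1.25 (adjusted p = 0.0435), and Zbtb16 and Klf9 fell by 1.14 and 0.55 (adjusted p = 0.0128 and 0.0283). The other 4, Fkbp5, Tsc22d3, Sgk1 and Mt1, were not called, and no gene of this list was called in the other comparisons.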

How the data were processed

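Per the labels and the methods of the study, RNA was isolated from eWAT with TRIzol, and single-end Illumina reads were mapped with HISAT/Bowtie2 to the mouse transcriptome (GRCm38/mm10). RSEM v1.2.31 gave FPKM per gene, which the authors deposited for 19 mice as 1 table. They also deposited read numbers and the percent of reads mapped. Strand and collection time are not given in the sources used here. The table holds FPKM and no read counts, so count models were not used and precision was taken from the spread between mice.

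Of 24238 genes 1 was left out because a cell was not a number. FPKM + 1 was log2 transformed, and 14268 genes with a mean of at least 1 FPKM over all mice entered 1 model of the 4 groups in limma (version 3.58.1, under R 4.3.3), whose prior followed the intensity. All tests of this model were two-sided, with Benjamini-Hochberg adjustment over the genes tested. For the slope on Arntl, that gene was added to the fit. Exact permutation tests were two-sided. They were run for 10 genes in 4 comparisons, and limma's p-values carry the adjustment. Correlations use deviations from group means. Mice of one number were treated as unpaired. Between groups their deviations correlated from −0.221 to 0.450 over all genes and from −0.880 to 0.889 over the 10 genes. Mice of different numbers were not set beside them, so these ranges cannot show whether the numbers pair the mice. The fits were also run on simulated data with planted differences and slopes, where the noise of each gene was drawn on its own. The clock genes here vary together, so that run does not show how the fits handle such genes. Gene coordinates are from GENCODE vM21.

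The genes, the lists and the comparisons were chosen with earlier results of these data known. The text names the 10 members, genes of the fixed lists past the threshold, and those with the smallest p for a slope on Arntl; some genes of these lists are not reported here. The study's methods tell of several mice to a cage, and nothing in the labels ties mice to cages. Mice of a group may thus have shared a cage, and p-values measure the spread between mice as sequenced.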

Additional observations from a re-analysis of the deposited data

Results flagged for a closer look

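Within each diet group, the mouse at either end was set against its nearest neighbour by Dixon's ratio of gap to range, for 10 genes in 4 groups. Chance flags about 1 in 20 groups, and 4 of 40 stood out. Clock was 17.1 FPKM in LowMg-HFD mouse 5, with the other 4 at 12 to 12.9 FPKM. That mouse also had the highest Arntl and the lowest Dbp of its group. Cry1 was 4.57 FPKM in NormMg-LFD mouse 4, the mouse with the highest Arntl of that group, with the others at 2.69 to 2.83 FPKM. Cry1 was 7.17 FPKM in LowMg-HFD mouse 4. Dbp was 28.6 FPKM in NormMg-HFD mouse 5, the mouse with the lowest Arntl of its group at 4.52 FPKM. Whether time of collection had a part in these values was not tested. No effect differed between diets past the threshold in the test of the interaction.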

How the results depend on the processing

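Of 1093 values under other settings, for part of the members' differences and slopes (of LowMg-HFD against LowMg-LFD, Per1 and Cry1 alone), 1028 kept their direction and side of the threshold, 40 lost their call, 18 gained one and 7 turned direction. At equal Arntl, Clock (0.0842), Cry1 (0.0138) and Dbp (−0.15) turned in LowMg-HFD against NormMg-HFD, and Cry1 (−0.0784) in NormMg-HFD against NormMg-LFD. At equal Dbp, Clock (0.0404) turned in the first comparison, and Arntl (−0.0392) and Cry1 (−0.0967) in the second. Differences outside this tally turned as well: in LowMg-HFD against LowMg-LFD, with no gene called, leaving out each mouse in turn gave −0.67 to 0.29 for Dbp, −0.32 to 0.21 for Arntl, −0.27 to 0.30 for Nr1d2, −0.38 to 0.11 for Tef, −0.12 to 0.33 for Per2 and −0.06 to 0.12 for Clock.

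In LowMg-HFD against NormMg-HFD, 0 of the 10 genes were called with no filter, median centring, no intensity trend, Arntl or the macrophage mean in the fit. It was 2 with only the groups compared (Tef and Per3) or Dbp in the fit, and 3 without LowMg-LFD mice 3 and 5. In NormMg-HFD against NormMg-LFD it was 3 with Arntl or Dbp and 0 with the macrophage mean in the fit, and Dbp alone was lost with no filter or no intensity trend. That mean left 0 of all genes called in both of these comparisons and 1 in LowMg-HFD against LowMg-LFD, which had 402 with only its groups in the fit. Genes with an interaction were 104 under the filter of the study, 2 with no filter, 39 after quantile normalization, 23 with Arntl in the fit and 6 without LowMg-LFD mice 3 and 5. For LowMg-LFD against NormMg-LFD there was 1 gene with no filter and 9 without those mice. Without them, the slope on Arntl called 0 members and 0 genes. The causes were not tested. The macrophage mean and leaving out those mice were chosen after seeing the data.

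With the replicate block, 0 members were called in LowMg-HFD against NormMg-HFD and 4, without Dbp, in NormMg-HFD against NormMg-LFD, and the slope on Arntl called 0 members and 0 genes. Whether the numbers pair the mice was not settled by their correlations.

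Leaving out each mouse in turn, members called ranged from 0 to 2 in LowMg-HFD against NormMg-HFD (2 without LowMg-LFD mouse 3), from 3 to 7 in NormMg-HFD against NormMg-LFD (3 without NormMg-LFD mouse 2 or 5) and from 0 to 3 for the slope (0 without LowMg-LFD mouse 3). All genes called ranged from 850 (without NormMg-HFD mouse 3) to 1690 in the first, from 703 (without LowMg-HFD mouse 2) to 1478 in LowMg-HFD against LowMg-LFD, from 0 to 331 (without LowMg-HFD mouse 2) for the interaction and from 0 to 18 for the slope.

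FPKM hold no depth per gene, so the precision of a low value in 1 mouse is unknown. Differences of about the size of the spread between mice, as for Dbp on the low-fat diet, were not resolved with 4 or 5 mice a group.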
